A study of Bos taurus with 8 samples.

Results

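The histone-rich window is the stretch chr23:30500000-32500000 of the cattle genome (UMD3.1 assembly), and its members are the loci with a gene identifier that lie wholly inside it. There were 92 such loci among the 24886 loci with an identifier in the table. Of these, 43 spanned under 800 bases and are called short loci, because histone genes are of that size, and the other 49 are called longer loci. The longest short locus spanned 792 bases and the shortest longer locus 924 bases, so the former lay just under the boundary. A further 19 loci of the window carried no identifier and were kept apart.

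RNA-Seq had been performed on 8 tissues of Bos taurus to compare transcript levels with DNA methylation. The tissues, each with 1 library, were whole testes, frontal cortex, uterus intercaruncular, mammary/parenchyma, abomasum (the glandular stomach), ileum (the last part of the small intestine), rumen (a large forestomach, without glands), and nucleated blood cells. No treatment, genotype or age is given in the RNA labels, nor is the animal behind each library. The study traces its methylation tissues to the Hereford cow whose genome was sequenced and to her relatives. It describes the RNA as from the same tissues, and likens their collection to that of an earlier bovine gene atlas. By its account the methylation tissues covered different stages of development and physiology, and its frontal cortex sample was juvenile. Tissue, animal and stage therefore cannot be told apart, and no difference between tissues could be tested. In bulk tissue, fewer cells of a type and less RNA per cell cannot be told apart either.

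Histones are the small basic proteins around which DNA is wound. The core of the nucleosome is built from H2A, H2B, H3 and H4, and H1 binds the linker DNA between nucleosomes. In mammals most of their genes form a dense cluster, are switched on together when a cell copies its DNA, and have no introns. Their mRNAs mostly end in a stem-loop in place of a poly(A) tail. The libraries were made with the TruSeq RNA v2 kit from total RNA, and the standard protocol of that kit selects RNA with poly(A) tails. The share of histone mRNA captured was not measured here.

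The table pairs no identifier with a gene symbol, so the loci are given by position, span and value. Near-identical histone copies also share reads, and a value at any single copy is uncertain for that reason. The lengths of the loci nevertheless bore on what they are, since each core histone has an almost fixed coding length. Of the 43 short loci, 5 spanned exactly 312 bases, the coding length of H4 with its stop codon. Exactly 381 bases, the coding length of H2B, were spanned by 7 loci. The length of H2A, 393 bases, was found at 6 loci, and that of H3, 411 bases, at 8 loci. These 26 loci made up 60.5% of the short loci, whereas the same 4 lengths made up 0.257% of all loci with an identifier and 16.5% of those of 300 to 499 bases. The window held 40.6% of the 64 loci of these lengths in the genome. By length this was 41.7% at 312 bases, 25.9% at 381 bases, 54.5% at 393 bases and 57.1% at 411 bases. A span is a description and gives no gene its name. The other 17 short loci included 2 under 300 bases (78 and 120 bases), and allowing a difference of 3 bases raised the number of core-histone lengths from 26 to 33.

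**Figure D1:**
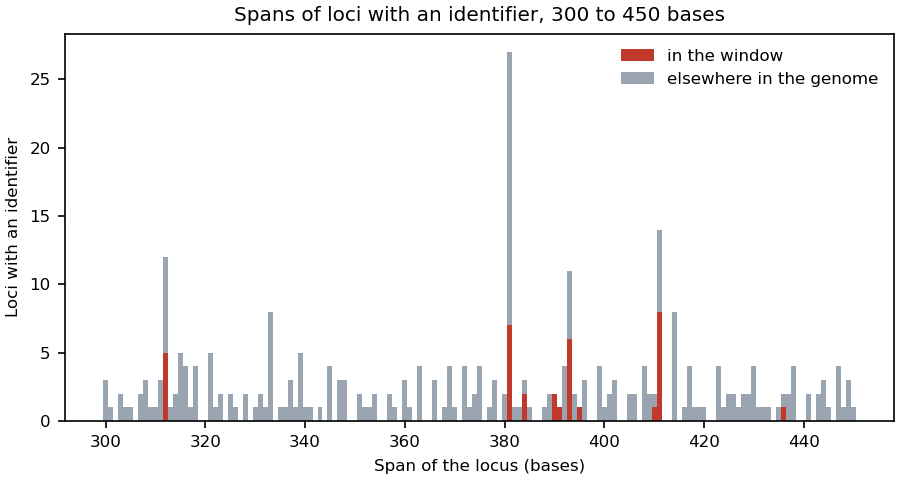
Number of loci with an identifier (vertical axis) at each span from 300 to 450 bases (horizontal axis), with loci of the window in red stacked under loci elsewhere in grey. The window holds 5 of 12 loci at 312 bases, 7 of 27 at 381 bases, 6 of 11 at 393 bases and 8 of 14 at 411 bases.

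Chromosome 23 of the RefSeq annotation (ARS-UCD2.0, another build, so that no position was carried over) lists 57 histone symbols, of which 52 are protein coding. These comprise 7 H1, 13 H2A, 15 H2B, 6 H3 and 11 H4 genes. Between the first and the last of them RefSeq lists 214 genes. They include 120 tRNA genes and 24 other protein-coding genes, such as HFE (the iron regulator mutated in haemochromatosis), BTN1A1 (a major protein of the milk fat globule membrane), the anion transporters SLC17A1, SLC17A2, SLC17A3 and SLC17A4, and PRSS16 (a protease of the thymus). None of these names was assigned to a locus of the window.

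The 41 short loci of at least 300 bases lay in 5 runs along the window, taken as stretches with gaps of no more than 100000 bases. The 2 shorter ones, at chr23:30788153-30788230 and chr23:30835083-30835202, were left out of the runs and were listed at 0 in all 8 libraries. The third run, chr23:31456886-31674743, held 21 short loci, 14 of them of a core-histone length, and 18 of the 21 were above 0 in at least 1 library. The first run, chr23:30713382-30768030, held 14 short loci, 11 of them of a core-histone length, and 10 of the 14 were above 0 in at least 1 library. Of all loci with an identifier, 14.2% of those under 800 bases and 34.7% of those of 300 to 499 bases were above 0 in at least 1 library. The highest FPKM (fragments scaled to the length of the transcript and to the number mapped in the library) was 15 in the third run and 5.31 in the first. In the third run 67 of 168 values were above 0, against 22 of 112 in the first. A single locus at chr23:31120660-31121052 had 0.952 FPKM in whole testes and 0 elsewhere, and another at chr23:32385306-32386038 was listed at 0 in all 8 libraries. The fourth run, chr23:31914309-31919276, held 4 loci of 384 to 395 bases.

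How many reads stood behind these values was recovered from the steps in which FPKM rises at the shortest loci without an identifier. The scaled depth was 6071000 reads in mammary/parenchyma, the shallowest library, 7547000 in ileum, the next, and 15611000 in rumen, the deepest. At a span of 312 bases 1 read was worth 0.672 to 1.73 FPKM, at 381 bases 0.409 to 1.05, at 393 bases 0.383 to 0.984 and at 411 bases 0.348 to 0.896. A value of 0 allows up to 3 reads, which corresponded to 2.01 to 5.18 FPKM at 312 bases and to 1.04 to 2.69 at 411 bases. An FPKM of 1 was thus less than 1 read for the H4-sized loci in every library except abomasum, rumen and nucleated blood cells. Of the 344 values of the short loci, 92 (26.7%) were above 0, and 48 of these 92 (52.2%) rested on fewer than 3 reads. The median was 2.72 reads, and 14 values rested on 10 reads or more. At loci with an identifier the recovered reads were rarely whole numbers, so they are approximate, and the intervals given with them cover counting error only. Such an interval is set beside the values of other libraries, which rest on few reads themselves.

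**Figure D2:**
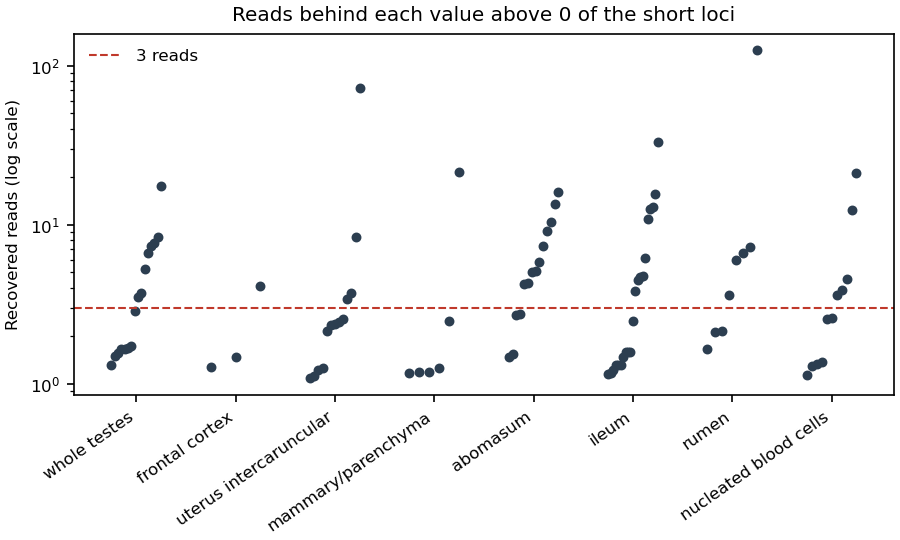
Recovered reads (vertical axis, log scale) behind each of the 92 values above 0 at the short loci, by library, with the dashed line at 3 reads. Points of a library are spread sideways in rising order, and 48 of them lie under the line.

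At this depth 31 of the 43 short loci (72.1%) were above 0 in at least 1 library, against 14.2% of all loci with an identifier under 800 bases. An FPKM of at least 1 was reached by 25 (58.1%), against 9.9% of all. The 26 loci of a core-histone length were set against the 389 loci of 300 to 499 bases, which are closer to them in length. Of the 26, 20 (76.9%) were above 0 and 16 (61.5%) reached 1 FPKM, against 34.7% and 27.5%. By length, 3 of 5 H4-sized, 6 of 7 H2B-sized, 5 of 6 H2A-sized and 6 of 8 H3-sized loci were above 0 in at least 1 library. Of the 38 loci of the same 4 lengths outside the window, 6 were above 0. No short locus had an FPKM of at least 1 in all 8 libraries, which 0.646% of all loci under 800 bases had. A signal in exactly 1 library was found at 8 short loci (18.6%, against 6.36% of all under 800 bases). The 12 short loci listed at 0 in all 8 libraries (27.9%, against 85.8% of all under 800 bases) included 6 of a core-histone length (23.1%, against 65.3% of those of 300 to 499 bases). At their lengths up to 3 reads in a library were allowed by a 0, so the absence of a transcript was not shown.

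**Figure D3:**
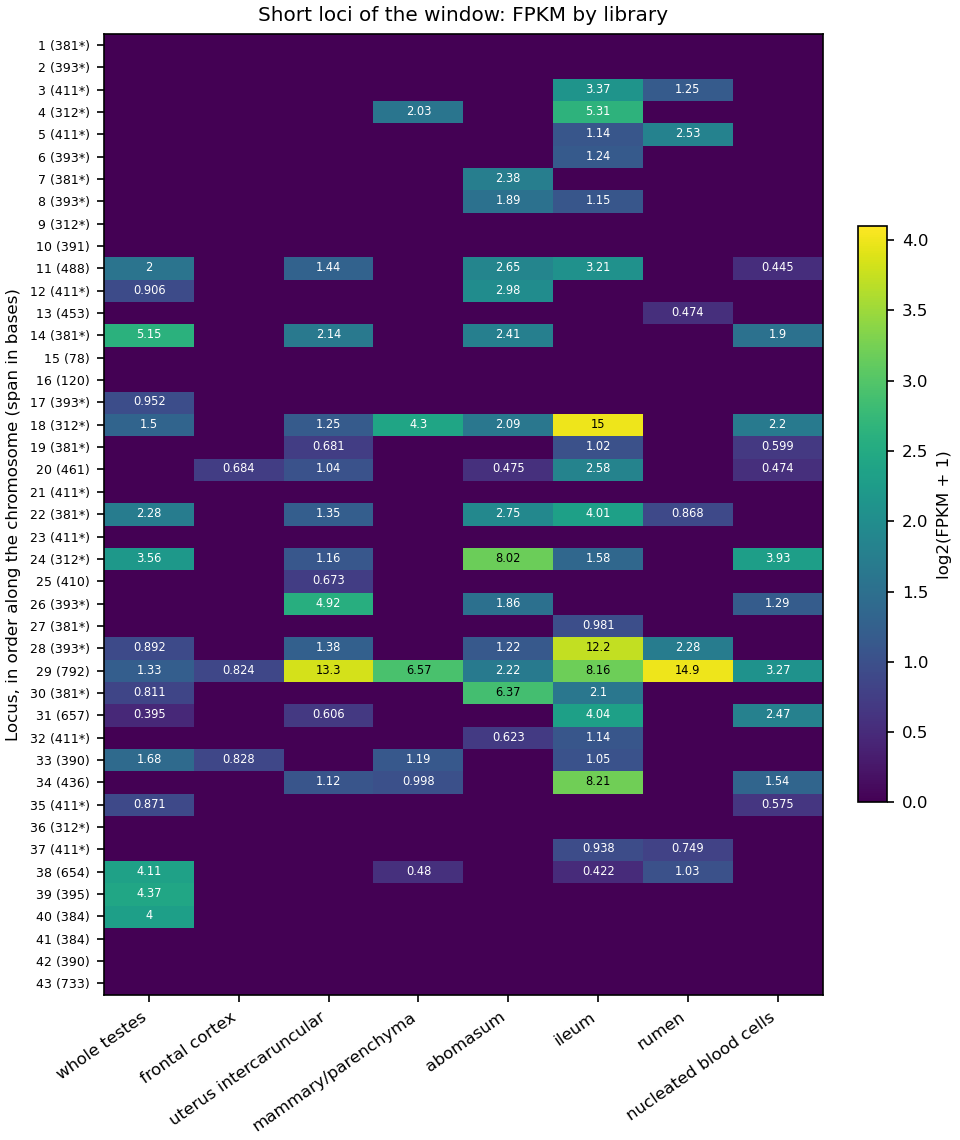
FPKM of the 43 short loci (rows, in order along the chromosome, with the span in bases in brackets and an asterisk at a core-histone length) in the 8 libraries (columns). The colour is log2(FPKM + 1), the printed numbers are FPKM and empty cells are 0; the ileum column has 21 values above 0 and the frontal cortex column 3.

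The signal was unevenly shared among the tissues. The shares of all loci given here are of those under 800 bases, a set not matched to the members in length. Of that set 14.2% were above 0 in at least 1 library, against 34.7% of the loci of 300 to 499 bases. Part of each contrast may thus lie in length, which was not tested per library. The ileum library had 21 short loci above 0 (48.8%, against 4.56% of all loci under 800 bases), followed by whole testes with 16 (37.2%, against 6.94%), abomasum with 14 (3.64% of all) and uterus intercaruncular with 13 (4.73% of all). Nucleated blood cells had 11 (5.24% of all), rumen 8 (3.67% of all), mammary/parenchyma 6 (3.06% of all) and frontal cortex 3 (4.32% of all). Among the 25 short loci with an FPKM of at least 1, the highest value was in ileum at 12 (48%), where it was for 10.7% of all expressed loci under 800 bases. It was in abomasum at 5 (20%, against 8.93%) and in whole testes at 5 (20%, against 32%). Rumen led at 2 (8%, against 11.3%) and uterus intercaruncular at 1 (4%, against 5.5%). No short locus was highest in frontal cortex, mammary/parenchyma or nucleated blood cells, where 9.28%, 7.56% and 14.8% of all such loci were. With each library put on the same upper quartile the ileum count was 14, and over loci whose highest value rested on at least 3 reads it was 9.

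At such loci each read is worth more FPKM in a shallow library, so few reads can carry it past a threshold or to the lead. The reads of the 26 loci of a core-histone length were therefore also summed, which allows an interval for counting error. The sums are scaled by the same depth as FPKM and do not remove an effect of depth. Ileum had 53 reads, or 7.02 RPM (reads per 1000000 reads of the scaled depth, 95% exact Poisson interval 5.26 to 9.18). Abomasum had 62.4 reads, or 4.64 RPM (3.56 to 5.94), and the intervals of these 2 libraries overlapped. Whole testes had 2.41 RPM (1.56 to 3.56) and uterus intercaruncular 1.94 (1.18 to 3). The 2 lowest of the remaining values above 0 were 1.3 in nucleated blood cells (0.737 to 2.12) and 0.604 in mammary/parenchyma (0.152 to 1.61), and rumen had 1.35 (0.837 to 2.06). In frontal cortex none of the 26 loci was above 0, which by the limit of 3 reads allows up to 0.321 RPM. The interval of ileum lay above those of the 6 libraries other than abomasum, and that of abomasum above those of uterus intercaruncular, mammary/parenchyma, rumen and nucleated blood cells and of frontal cortex. Without the locus that gave ileum the most reads (15.5 of 53), ileum had 4.97 RPM (3.51 to 6.84) and abomasum 4.43 (3.38 to 5.71), and these 2 stayed the highest of the 8 libraries. Abomasum was second for the core-histone lengths only. Over all 43 short loci ileum had 16.5 RPM (13.7 to 19.7), uterus intercaruncular 10.3, rumen 9.87, whole testes 7.12 and abomasum 6.61. Without the 792-base locus, which held most of the rumen and uterus reads, ileum had 12.1 RPM (9.78 to 14.9), whole testes 6.41 (4.96 to 8.15) and abomasum 5.42 (4.25 to 6.82). These intervals compare the libraries, not the tissues, because each tissue had 1 library.

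**Figure D4:**
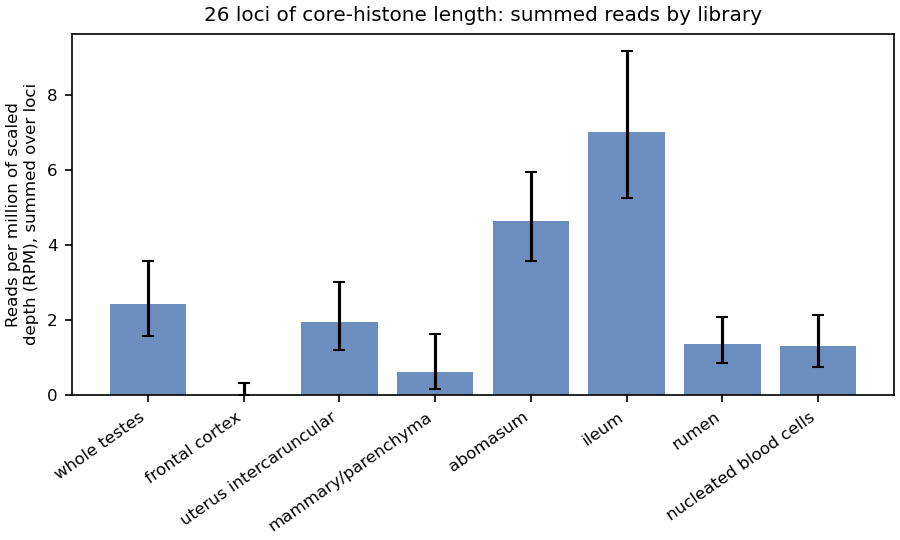
Recovered reads summed over the 26 loci of a core-histone length, in RPM (vertical axis, linear from 0), in the 8 libraries, with 95% exact Poisson intervals for counting error as error bars. Ileum (7.02) and abomasum (4.64) are the highest bars, and frontal cortex is at 0 with an upper limit of 0.321.

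Within a class of one length, single loci carried much of the signal. At the 5 H4-sized loci the highest sum was 2.09 RPM in ileum (1.19 to 3.41). Abomasum followed with 0.965 RPM (0.513 to 1.65), mammary/parenchyma with 0.604 (0.152 to 1.61), nucleated blood cells with 0.585 (0.237 to 1.2) and whole testes with 0.483 (0.157 to 1.13). At the 6 H2A-sized loci ileum again had the highest sum, 2.45 (1.46 to 3.85), followed by uterus intercaruncular with 1.05 (0.521 to 1.9). At the 7 H2B-sized loci abomasum was highest with 2.18 (1.46 to 3.12), and whole testes (1.29, 0.693 to 2.19) and ileum (1.27, 0.597 to 2.36) followed. At the 8 H3-sized loci ileum had 1.21 (0.557 to 2.29) and rumen 0.833 (0.444 to 1.42). Within each class the intervals of the highest and the next library overlapped. The H4-sized locus at chr23:31456886-31457197 gave 10.8 of the 15.8 ileum reads of its class, and without it ileum had 0.657 RPM (0.212 to 1.54) and abomasum 0.765 (0.371 to 1.39). The H2A-sized locus at chr23:31526582-31526974 gave 15.5 of 18.5, and without it ileum had 0.401 RPM (0.0833 to 1.17), below uterus intercaruncular with 0.824 (0.364 to 1.6). Among the H2B-sized loci, chr23:31539669-31540049 gave 13.4 of the 29.3 abomasum reads, and without it abomasum had 1.18 RPM (0.672 to 1.92) and whole testes 1.16 (0.602 to 2.03). Among the H3-sized loci, the one starting at 30715880 gave 4.67 of the 9.13 ileum reads, and without it ileum had 0.591 RPM (0.176 to 1.44) and abomasum 0.663 (0.302 to 1.26). Another library was then highest in the H4-sized, H2A-sized and H3-sized classes, and abomasum stayed highest, by little, in the H2B-sized class. The locus left out was each time the one with the most reads in the leading library, so the sum of that library had to fall. The 8 H3-sized loci had the lowest maximum of the 4 classes, 3.37 FPKM.

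Of the 12 short loci with the highest values, ileum led at 5, whole testes at 3, abomasum at 2, and uterus intercaruncular and rumen at 1 each. The highest of them was the H4-sized chr23:31456886-31457197 (ENSBTAT00000045033), with 15 FPKM in ileum. It had 4.3 FPKM in mammary/parenchyma, 2.2 in nucleated blood cells, 2.09 in abomasum, 1.5 in whole testes and 1.25 in uterus intercaruncular, and 0 in frontal cortex and rumen. The ileum value rested on 10.8 reads (95% exact Poisson interval 5.36 to 19.4), or 7.45 to 27 FPKM, which lay above the values of the other libraries, although the 4.3 FPKM of mammary/parenchyma rested on 2.49 reads. The 792-base locus chr23:31534731-31535522 (ENSBTAT00000052402) was the only short locus above 0 in all 8 libraries. It had 14.9 FPKM in rumen, 13.3 in uterus intercaruncular, 8.16 in ileum, 6.57 in mammary/parenchyma, 3.27 in nucleated blood cells, 2.22 in abomasum, 1.33 in whole testes and 0.824 in frontal cortex. Its rumen value rested on 125 reads (104 to 149), the largest number behind any value of the short loci, if its span holds no intron. The interval of its rumen value, 12.4 to 17.8 FPKM, covered the uterus value as well. Rumen thus led here, whereas in the sum over the core-histone lengths its interval lay below that of ileum.

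At the H2A-sized locus chr23:31526582-31526974 ileum had 12.2 FPKM (15.5 reads, 8.75 to 25.3). Rumen had 2.28 FPKM there, uterus intercaruncular 1.38, abomasum 1.22 and whole testes 0.892, and the other 3 libraries were at 0. Ileum also stood above the others at the 436-base locus chr23:31652711-31653146, with 8.21 FPKM (12.8 reads, 6.79 to 22). Nucleated blood cells had 1.54 FPKM, uterus intercaruncular 1.12 and mammary/parenchyma 0.998 there, and the others 0. At the 657-base locus chr23:31556336-31556992 ileum had 4.04 FPKM and nucleated blood cells 2.47, on 12.5 and 12.3 reads. The FPKM interval of ileum, 2.12 to 6.98, included the value of nucleated blood cells, and uterus intercaruncular (0.606), whole testes (0.395) and the remaining 4 libraries (0) were lower. The H4-sized locus chr23:30724826-30725137 had 5.31 FPKM in ileum, but on 3.82 reads (1 to 9.98), and 2.03 in mammary/parenchyma, on 1.17 reads. The other 6 libraries were at 0, and these few reads gave no order between ileum and mammary/parenchyma.

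Abomasum led at 2 of the 12 highest loci. The H4-sized locus chr23:31485395-31485706 had 8.02 FPKM in abomasum (10.3 reads, 4.99 to 18.8), 3.93 in nucleated blood cells, 3.56 in whole testes, 1.58 in ileum and 1.16 in uterus intercaruncular, and 0 in frontal cortex, mammary/parenchyma and rumen. The FPKM interval of abomasum, 3.89 to 14.6, included the value of nucleated blood cells. The H2B-sized locus chr23:31539669-31540049 had 6.37 FPKM in abomasum (13.4 reads, 7.22 to 22.8), 2.1 in ileum and 0.811 in whole testes, and 0 in the other 5 libraries. The interval of its abomasum value, 3.43 to 10.8 FPKM, lay above the values in ileum and whole testes. The single locus led by uterus intercaruncular was the H2A-sized chr23:31518525-31518917. It had 4.92 FPKM there (8.38 reads, 3.71 to 16.3), 1.86 in abomasum, 1.29 in nucleated blood cells and 0 in the other 5 libraries.

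Whole testes led at 3 of the 12. The H2B-sized locus chr23:30767650-30768030 had 5.15 FPKM in whole testes (8.34 reads, 3.67 to 16.2), 2.41 in abomasum, 2.14 in uterus intercaruncular and 1.9 in nucleated blood cells, and 0 in frontal cortex, mammary/parenchyma, ileum and rumen. Its interval, 2.27 to 10 FPKM, included the value in abomasum. The 654-base locus chr23:31674090-31674743 had 4.11 FPKM in whole testes (17.4 reads, 10.2 to 27.7), 1.03 in rumen, 0.48 in mammary/parenchyma, 0.422 in ileum and 0 in the other 4 libraries. Here the interval, 2.41 to 6.55 FPKM, lay above the value in every other library. The 395-base locus chr23:31914309-31914703 had 4.37 FPKM in whole testes (7.66 reads, 3.23 to 15.3) and was listed at 0 in the other 7 libraries, where 3 reads would be 1.14 to 2.92 FPKM.

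The last of these loci has a neighbour of 384 bases at chr23:31914984-31915367, with 4 FPKM in whole testes and 0 in the other 7 libraries. Both belong to the fourth run, whose other 2 loci were at 0 in every library. By the rule of an FPKM + 1 of at least 5 times the next library, these 2 short loci were enriched in whole testes (4.65%, against 1.43% of all loci under 800 bases). The latter set is not matched to the members in length. The lower ends of the intervals of their testes values, 1.85 and 1.56 FPKM, lay inside the range of 3 reads in the other libraries, which was 1.21 to 3.1 FPKM at the neighbour.

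The 49 longer loci lie among and beside the short ones, and their spans ran from 924 to 310431 bases with a median of 3821. Without symbols, any histone genes with longer annotated spans among them could not be told from other genes. Of these, 34 (69.4%) were above 0 somewhere, against 84.7% of all loci of 800 bases or more, and 30 (61.2%) reached 1 FPKM, against 78.3%. All 8 libraries reached 1 FPKM for 9 (18.4%, against 40.5%), and 15 were listed at 0 throughout (30.6%, against 15.3%). Of the 8 longer loci that spanned 924 to 945 bases, a usual length of an olfactory receptor coding sequence, 7 were among the 15, and the eighth had 0.25 FPKM in whole testes alone. The share at 0 among all loci of these lengths was not computed, so this is not shown to be particular to the window. A given FPKM rests on more reads at a longer transcript, but reads were not computed for these loci because a span with introns is not the length of a transcript.

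**Figure D5:**
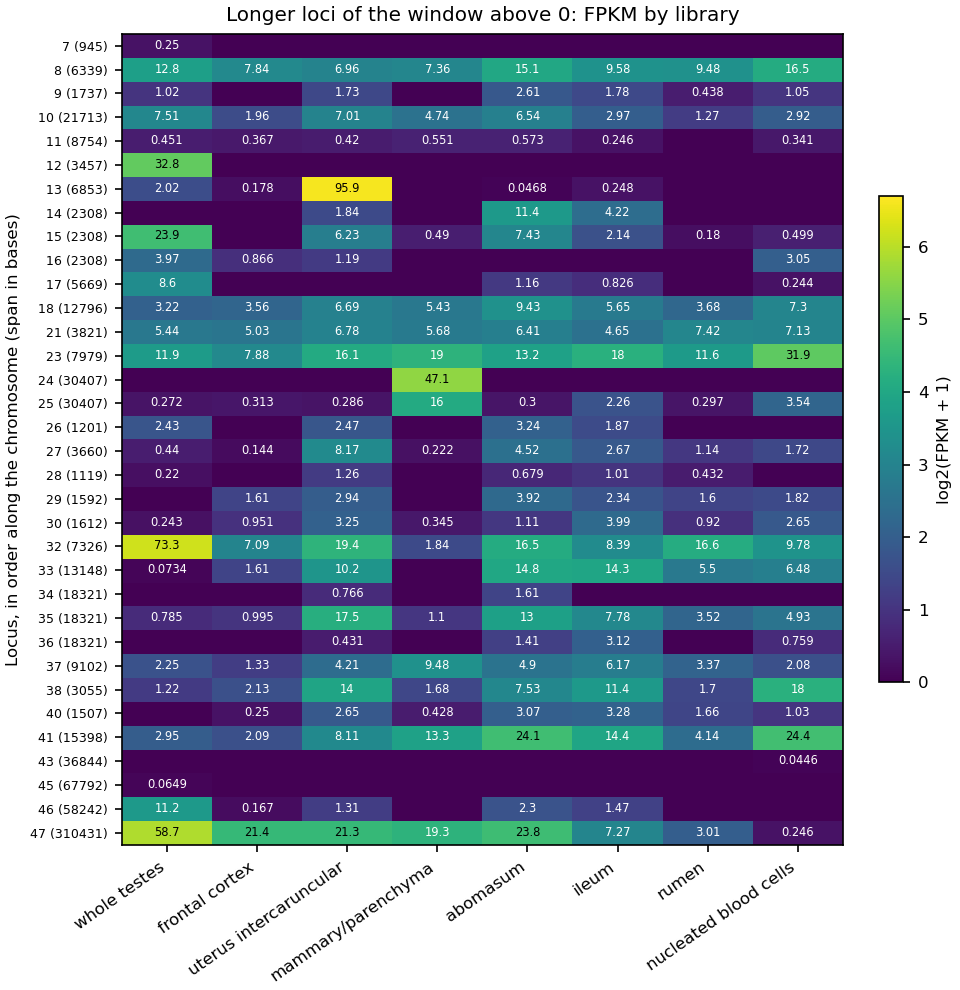
FPKM of the 34 longer loci above 0 in at least 1 library (rows, in order along the chromosome, with the span in bases in brackets) in the 8 libraries (columns). The colour is log2(FPKM + 1), the printed numbers are FPKM and empty cells are 0; the highest cells are 95.9 in uterus intercaruncular and 73.3 in whole testes.

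The number of longer loci with an FPKM of at least 1 was 24 in each of uterus intercaruncular, abomasum and ileum (49%, against 58.4%, 57.5% and 59.6% of all loci of 800 bases or more). It was 18 in whole testes (36.7%, against 65.4%) and in nucleated blood cells (36.7%, against 50.6%), 15 in rumen (30.6%, against 54.6%), 13 in mammary/parenchyma (26.5%, against 57.8%) and 12 in frontal cortex (24.5%, against 58.3%). Every library stood below the share of all loci, and frontal cortex, mammary/parenchyma and whole testes by the most. Among the 30 expressed longer loci the highest value was in whole testes at 8 (26.7%, against 30.8%) and in abomasum at 7 (23.3%, against 9.16%). Uterus intercaruncular and nucleated blood cells led at 4 each (13.3%, against 7.5% and 15.1%), mammary/parenchyma at 3 (10%, against 4.72%) and rumen at 1 (3.33%, against 12.1%). Frontal cortex led at none, against 16.1% of all. Ileum, which led at 12 of the 25 expressed short loci, led at 3 of the 30 longer ones (10%, against 4.5% of all loci of 800 bases or more).

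An FPKM + 1 of at least 5 times the next library was found at 3 longer loci. The highest value among the 92 members was 95.9 FPKM in uterus intercaruncular at chr23:31066813-31073665 (ENSBTAT00000054181). This locus had 2.02 FPKM in whole testes, 0.248 in ileum, 0.178 in frontal cortex and 0.0468 in abomasum, and was listed at 0 in mammary/parenchyma, rumen and nucleated blood cells. On the scale of FPKM + 1 uterus stood 32 times above whole testes, and 0.428% of all longer loci were enriched in uterus by the same rule. At chr23:31040774-31044230 whole testes had 32.8 FPKM, and the other 7 libraries were listed at 0. Enrichment in whole testes, 1 of 49 here, was found for 7.3% of all loci of 800 bases or more. Without abomasum, or with a pseudocount of 0.1, this count was 2. At chr23:31343551-31373957 mammary/parenchyma had 47.1 FPKM and the other 7 libraries 0, and 0.223% of all longer loci were enriched in that library.

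A second locus with these same coordinates had 16 FPKM in mammary/parenchyma, 3.54 in nucleated blood cells, 2.26 in ileum and 0.272 to 0.313 in the other 5 libraries. Both were highest in mammary/parenchyma, but overlapping loci divide their reads in a way the table does not show. The window held 6 such sets of shared coordinates, with 15 members. At chr23:31111555-31113862 there were 3 loci. The first had 11.4 FPKM in abomasum, 4.22 in ileum, 1.84 in uterus intercaruncular and 0 elsewhere. The second had 23.9 in whole testes, 7.43 in abomasum, 6.23 in uterus intercaruncular, 2.14 in ileum and 0.18 to 0.499 in the other libraries, except frontal cortex at 0. The third had 3.97 in whole testes, 3.05 in nucleated blood cells, 1.19 in uterus intercaruncular, 0.866 in frontal cortex and 0 in the other 4. Abomasum thus led at 1 of the 3 loci and whole testes at the other 2.

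Whole testes led at 2 further loci of high level. At chr23:31548015-31555340, which begins after the H2B-sized locus at chr23:31539669-31540049, whole testes had 73.3 FPKM. Uterus intercaruncular had 19.4, rumen 16.6, abomasum 16.5, nucleated blood cells 9.78, ileum 8.39, frontal cortex 7.09 and mammary/parenchyma 1.84. Every library was above 1 FPKM there, with the highest and lowest far apart. At chr23:32029072-32339502, the longest member, whole testes had 58.7 FPKM, abomasum 23.8, frontal cortex 21.4, uterus intercaruncular 21.3, mammary/parenchyma 19.3, ileum 7.27, rumen 3.01 and nucleated blood cells 0.246. The other 2 loci with these coordinates were at 0 in every library.

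Nucleated blood cells led at 2 of the 8 highest longer loci. At chr23:31322596-31330574 they had 31.9 FPKM, followed by mammary/parenchyma with 19, ileum with 18, uterus intercaruncular with 16.1, abomasum with 13.2, whole testes with 11.9, rumen with 11.6 and frontal cortex with 7.88. At chr23:31693255-31708652 nucleated blood cells (24.4 FPKM) and abomasum (24.1) were level. Ileum had 14.4 FPKM there, mammary/parenchyma 13.3, uterus intercaruncular 8.11, rumen 4.14, whole testes 2.95 and frontal cortex 2.09.

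Other longer loci had similar levels in the 8 libraries, and 3 are given as the most even among those that reached 1 FPKM in each. At chr23:31277503-31281323 the 8 values ran from 4.65 FPKM in ileum to 7.42 in rumen, a ratio of 1.49 on the scale of FPKM + 1. At chr23:30735402-30741740, inside the first run of histone-sized loci, they ran from 6.96 in uterus intercaruncular to 16.5 in nucleated blood cells (ratio 2.2). At chr23:31206258-31219053 they ran from 3.22 in whole testes to 9.43 in abomasum (ratio 2.47). The locus inside the first run was thus above 6 FPKM in every library, including frontal cortex with 7.84, where the 11 loci of a core-histone length around it were at 0.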

How the data were processed

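RNA-Seq of 8 cattle tissues was used, with 1 library per tissue, and each library's tissue was taken from its label. Per the study's methods, low-quality and contaminating reads were removed, and the authors aligned the rest to UMD3.1 with TopHat (TopHat2 2.0.13 in the submitters' processing notes) and applied Cufflinks with default parameters. The values deposited by the authors are FPKM per locus. The same table holds the authors' comparisons of pairs of tissues (log2 fold change, statistic, p and q), which were not used.

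Members were loci with an identifier lying wholly inside the window, with starts counted from 1. Members, lists and rules were chosen with earlier results of these data known. Those described in all 8 libraries were the 12 short and the 8 longer loci with the highest FPKM, the 3 most enriched per library (FPKM + 1 at least 5 times the next library) and the 3 most even among those that reached 1 FPKM in all 8. The locus neighbouring the testes-only locus, the sets of shared coordinates and the runs were chosen after their values were seen. Expressed meant an FPKM of at least 1. Of the 92 members, 0 identifiers matched a RefSeq symbol, so the lists of histone-processing genes and of cell markers are not analysed here.

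Reads were computed as FPKM times scaled depth times effective length, with a normal distribution of fragment lengths (mean 200, SD 80, lower limit 87 bases). The span of a short locus was taken as its transcript length, so its reads would differ if it held an intron. Depth was the smallest that made at least 95% of loci without an identifier of 88 to 130 bases whole within 0.03 reads (96.4% to 100% were). At loci without an identifier of 300 to 449 bases 96.8% to 99.1% of low values were whole, but at those with one 0% to 22.2%. The recovery of depth was tested on simulated loci of 88 to 130 bases that held whole reads, which does not cover loci with an identifier. The reads carry no molecular identifiers, so 95% exact Poisson intervals and the limit of 3 reads cover counting error only. With 1 library per tissue no test was run. Alternatives covered thresholds, pseudocount, scaling, the span boundary, window overlap, loci without identifiers and each library left out. Python 3.11.15, pandas 2.3.3, numpy 2.4.6, scipy 1.17.1 and matplotlib 3.10.9 were used.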

Additional observations from a re-analysis of the deposited data

Results flagged for a closer look

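The 19 loci of the window without an identifier were outside the main measurement, and 9 of them spanned under 800 bases with a highest value above the 3 reads that a count of 0 allows. All 9 were flagged for that reason, and none entered the counts of members as reported. In abomasum, the 91-base locus starting at 30721652 on chromosome 23 had 34200 FPKM on 13 reads, and the 104-base locus starting at 31499517 had 3000 FPKM on 14 reads, with 0 in the other 7 libraries at both. At such short spans a few reads give a very high FPKM. Also in abomasum, the 276-base locus at 31498157 had 28 FPKM (25 reads) and the 480-base locus at 31288606 had 6.91 FPKM (23 reads).

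In nucleated blood cells the 320-base locus at 31378509 had 16.2 FPKM (20 reads), the 415-base locus at 31381823 had 6.62 (15 reads) and the 263-base locus at 31391929 had 20.3 (14 reads). At these 3 loci ileum had 2.59, 3.53 and 9.31 FPKM. Mammary/parenchyma had 3.22 FPKM at the first and 0.878 at the second, uterus intercaruncular had 1.73 at the third, and whole testes, frontal cortex, abomasum and rumen were at 0. In whole testes the 330-base locus at 31456185, next to the H4-sized locus with the highest value of the short loci, had 18.3 FPKM (21 reads), and the 522-base locus at 31169684 had 8.1 FPKM (24 reads). At the 330-base locus ileum had 2.39 FPKM, whereas ileum led at its H4-sized neighbour.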

How the results depend on the processing

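No paired analysis was possible because the labels give a single library for every tissue, which leaves no test. Of 80 recomputed counts, 72 stayed within 1.5 times the value reported and 8 did not. With an FPKM of at least 5 in place of 1, the expressed short loci fell from 25 to 8, the short loci highest in ileum from 12 to 4 and those highest in whole testes from 5 to 1, since fewer loci pass. With the boundary at 1500 bases, 21 loci in place of 12 counted as short and at 0 in every library, since the longer class lost them. The count of longer loci enriched in whole testes, 1 as reported, was 6 with a fold of 2, 2 with a pseudocount of 0.1 and 3 with the loci without an identifier included. With 1 other library left out at a time it was 1 to 2, and 2 without abomasum. With a library left out, the short loci highest in ileum numbered 12 to 14, those highest in whole testes 5 to 5, and the longer loci highest in whole testes 8 to 9. The summed reads of the core-histone lengths were also taken without the leading locus, an alternative chosen after the data were seen. Of these 5 sums in their leading library, 4 fell below their intervals as reported. A fall was fixed in advance, since the locus left out was the one with the most reads in that library. Values of the short loci on fewer than 3 reads numbered 48, and 56 or 37 with a mean fragment length of 180 or 220 bases. The requirement of at least 3 reads was not run at longer loci, because a span with introns is not a transcript length. The difference between tissues, animals and libraries cannot be told apart.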

Other observations

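Of the 10 longer loci without an identifier, 5 are given for their uneven values, chosen after these were seen, and others were above 0 in all 8 libraries, such as chr23:31268905-31270206 with 0.741 to 2.95 FPKM and chr23:31282707-31286733 with 0.692 to 4.02 FPKM. In abomasum the locus chr23:30699276-30700491 had 5630 FPKM and chr23:30708659-30712626 had 45.6 FPKM, and both were listed at 0 in the other 7 libraries. They lie just before the first run of histone-sized loci. In whole testes chr23:31157572-31161014 had 21.4 FPKM and chr23:31412281-31421678 had 10.8, again with 0 elsewhere. In nucleated blood cells chr23:31379159-31380415 had 16.6 FPKM, against 3.3 in ileum and at most 1.2 in the other libraries. It lies among the 3 short loci of the same kind that were highest in nucleated blood cells.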
